A study of Mus musculus with 2 samples.

Results

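Homeobox and Pax genes encode transcription factors that give regions of the embryo their identity, and 37 of them that work mostly outside the mature cortex are described here. They were listed by name among 21755 protein-coding genes, and the rule that takes them uses no measured value. The data are DNase-seq, in which nuclei are treated with DNase I and the DNA that it cuts most often is taken as accessible chromatin. The samples were 2 left cerebral cortices from B6CASTF1/J males, F1 hybrids of a laboratory and a wild-derived strain, at 36 days of age, with 1 library per animal. Both animals form a single group without treatment, so no test between groups is possible, and each value is given for replicate 1 and replicate 2. The labels number them as different males although 1 donor record is attached to both libraries. Whole tissue holds many cell types, so few cells with a strongly open site and many cells with a weakly open site cannot be told apart.

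In the embryo many members are switched on by signals from the neural tube, the isthmus at the midbrain-hindbrain border and the ventral midline. These mark certain progenitors or neurons, and other members act in organs such as heart, kidney and spleen. Most of the members have promoters dense in CpG dinucleotides. In cells that do not use them, such promoters are known to be bound by Polycomb group complexes and to stay silent while mostly free of DNA methylation. Cortical excitatory neurons come from a forebrain lineage that uses other homeobox genes, among them Emx1, Cux1 and the Pou3f genes.

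Of the 37 members, 30 had a CpG-rich promoter, here 1 kb around the gene's 5′ end with a GC fraction of at least 0.5 and an observed over chance CpG ratio of at least 0.6. The other 7 were Pax5, Pax8, Pitx3, Lhx3, Lhx4, Lhx8 and Lhx9. Promoter sequences from RefSeq on GRCm38 were found for 30 of the 37 genes, 34 entries in all. Over windows of 300 bases they held a median of 19.5 CpGs, beside 7 over 32851 promoters. The 250 bases before the start of 3 members are printed with each CpG in capitals, because they show 3 promoters with different calls. By the rule above Gbx2 and Tlx3 were CpG-rich over 1 kb and Pitx3 was not. Gbx2 had no promoter peak in either mouse, Tlx3 had a peak in replicate 1 and Pitx3 had peaks in both.

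Gbx2, chr1:89931177-89931426, minus strand, 18 CpGs: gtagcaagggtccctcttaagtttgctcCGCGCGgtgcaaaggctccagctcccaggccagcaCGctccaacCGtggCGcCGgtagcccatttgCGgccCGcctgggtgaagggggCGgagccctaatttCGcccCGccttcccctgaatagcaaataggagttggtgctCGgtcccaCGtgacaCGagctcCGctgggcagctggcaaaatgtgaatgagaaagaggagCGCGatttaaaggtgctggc

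Tlx3, chr11:33203589-33203838, minus strand, 13 CpGs: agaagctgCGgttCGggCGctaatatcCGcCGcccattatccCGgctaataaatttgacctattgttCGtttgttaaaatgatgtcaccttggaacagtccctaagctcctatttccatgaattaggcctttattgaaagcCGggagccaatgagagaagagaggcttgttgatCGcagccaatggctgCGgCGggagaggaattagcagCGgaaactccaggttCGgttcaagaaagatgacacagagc

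Pitx3, chr19:46148326-46148575, minus strand, 16 CpGs: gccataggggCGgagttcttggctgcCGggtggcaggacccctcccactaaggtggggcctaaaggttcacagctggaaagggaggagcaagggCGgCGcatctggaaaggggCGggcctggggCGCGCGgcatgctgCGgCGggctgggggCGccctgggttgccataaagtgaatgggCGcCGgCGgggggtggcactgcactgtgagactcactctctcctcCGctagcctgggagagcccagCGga

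Known motifs were then counted in the 34 promoter windows. The Sp or Klf box GGGCGG, searched like all motifs on both strands, was in 20 of the 34 member promoters (58.8%) and in 35.7% of all 32851. The E-box CAGNTG was in 47.1% of the member promoters and 51.4% of all. The homeodomain core TAATTA was in 1 of 34, at Barhl1, beside 5.29% of all. These are counts of letters in a window and say nothing about whether a factor was bound.

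Peak heights, the authors' signal per peak, were read as cuts scaled to library depth, which the values place at 160.1 M (replicate 1) and 145.4 M cuts (replicate 2). In the shorter peak list the libraries had 72021 and 59150 peaks with median heights of 1.18 and 0.963. Bases at a false discovery rate of the cut rate of 0.05 or less covered 44.5 and 29.5 Mb. The label of the tissue fitted its markers, since all 8 markers of cortical excitatory neurons had a promoter peak in both mice. Markers of nearby tissue and of other cell types were listed in part. Peaks stood at 5 of 12 midbrain and hindbrain markers in replicate 1 and at 2 in replicate 2, with summed heights of 6.56 and 1.93, and 7 of them (Foxa2, Fev, Slc6a3, Slc6a2, Gata2, Gata3 and Ptf1a) were at 0 in both mice. In the longer list, 10 and 3 of the 12 had a peak, and Foxa2 and Fev were at 0 in both mice. Of 8 hypothalamus markers 2 had a peak in each mouse (summed heights 12.5 and 4.29), of 8 meninges markers 4 and 3 (5.13 and 2.93), of 6 striatum markers 5 and 4 (13.1 and 8.78), and of 8 interneuron markers 6 and 3 (5.82 and 3.77). The part of such cells in the results that follow was not tested.

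Few members had a promoter peak in the shorter list, and more of them did in replicate 1 than in replicate 2. A promoter peak, meaning any peak that came within 1 kb of an annotated start site, was listed for 15 of 37 members in replicate 1 and 3 of 37 in replicate 2 (24.3% ± 22.9, SD, n = 2). The same count gave 63.5% and 58.4% of all protein-coding genes, and 95.5% and 89.3% of the 9739 coding genes with a CpG-rich promoter. Among the 30 CpG-rich members, 11 had a peak in replicate 1 and 1 in replicate 2. Among the other 7, 4 and 2 did. The members' shares were below both backgrounds in each mouse, and farther below the CpG-rich one.

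**Figure D1:**
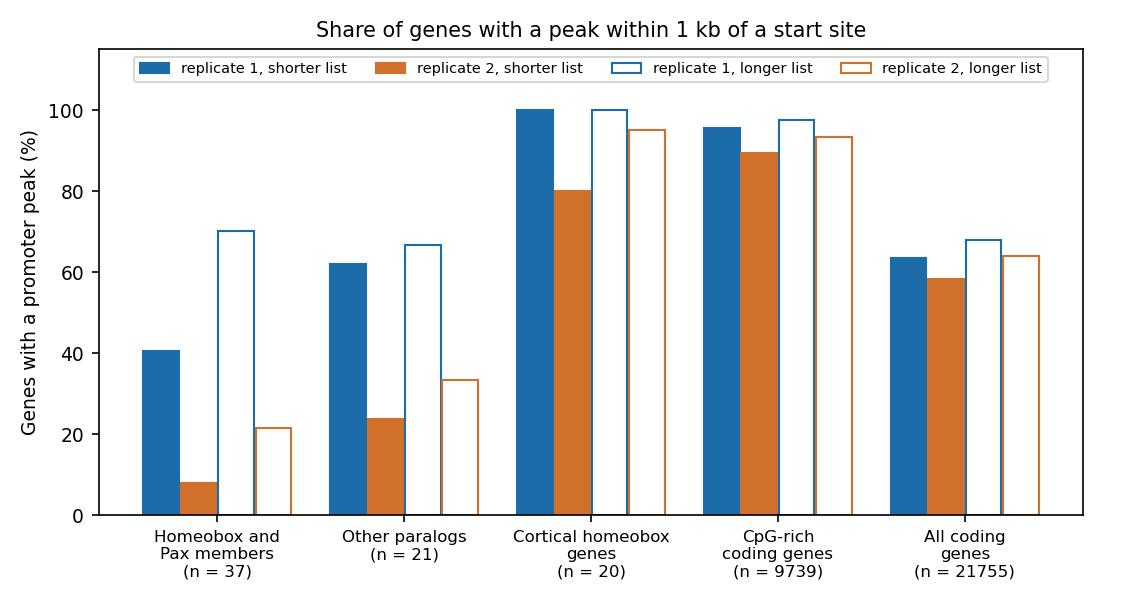
Share of genes (percent) with a peak within 1 kb of a start site, for the members and 4 other sets of genes. Filled bars are the shorter peak list and open bars the longer list, blue for replicate 1 and orange for replicate 2. Over mice and lists the CpG-rich coding genes lay between 89.3% and 97.5% and the members between 8.11% and 70.3%.

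The mice did not list the same promoters. Pax5 and Pitx3 had a promoter peak in both mice, 13 members in replicate 1 alone, Isl1 in replicate 2 alone, and 21 in neither. Peaks in replicate 1 alone thus made up 35.1% of the members, beside 5.87% of all coding genes and 6.42% of CpG-rich coding genes. The 15 promoters called in replicate 1 had low peaks, with a median height of 0.881 where called promoters of all coding genes had 4.40. For the 3 of replicate 2 the values were 0.764 and 2.65. Replicate 1 also had more listed bases genome-wide (44.5 against 29.5 Mb), and the part of that in the counts was not tested.

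The longer list, which the authors drew at a laxer threshold, raised the counts in both mice but kept them apart. It gave a promoter peak to 26 members in replicate 1 and 8 in replicate 2, beside 67.8% and 64.0% of coding genes and 97.5% and 93.4% of CpG-rich coding genes. All 8 of replicate 2 were among the 26 of replicate 1. In 11 members neither list held a promoter peak in either mouse: Pax3, Pax7, Pax8, Gbx2, Lmx1b, Phox2a, Nkx2-1, Nkx2-5, Irx2, Six6 and Tlx1. In replicate 1 the members' share on this list was close to that of all coding genes, while it stayed below that of CpG-rich genes.

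**Figure D2:**
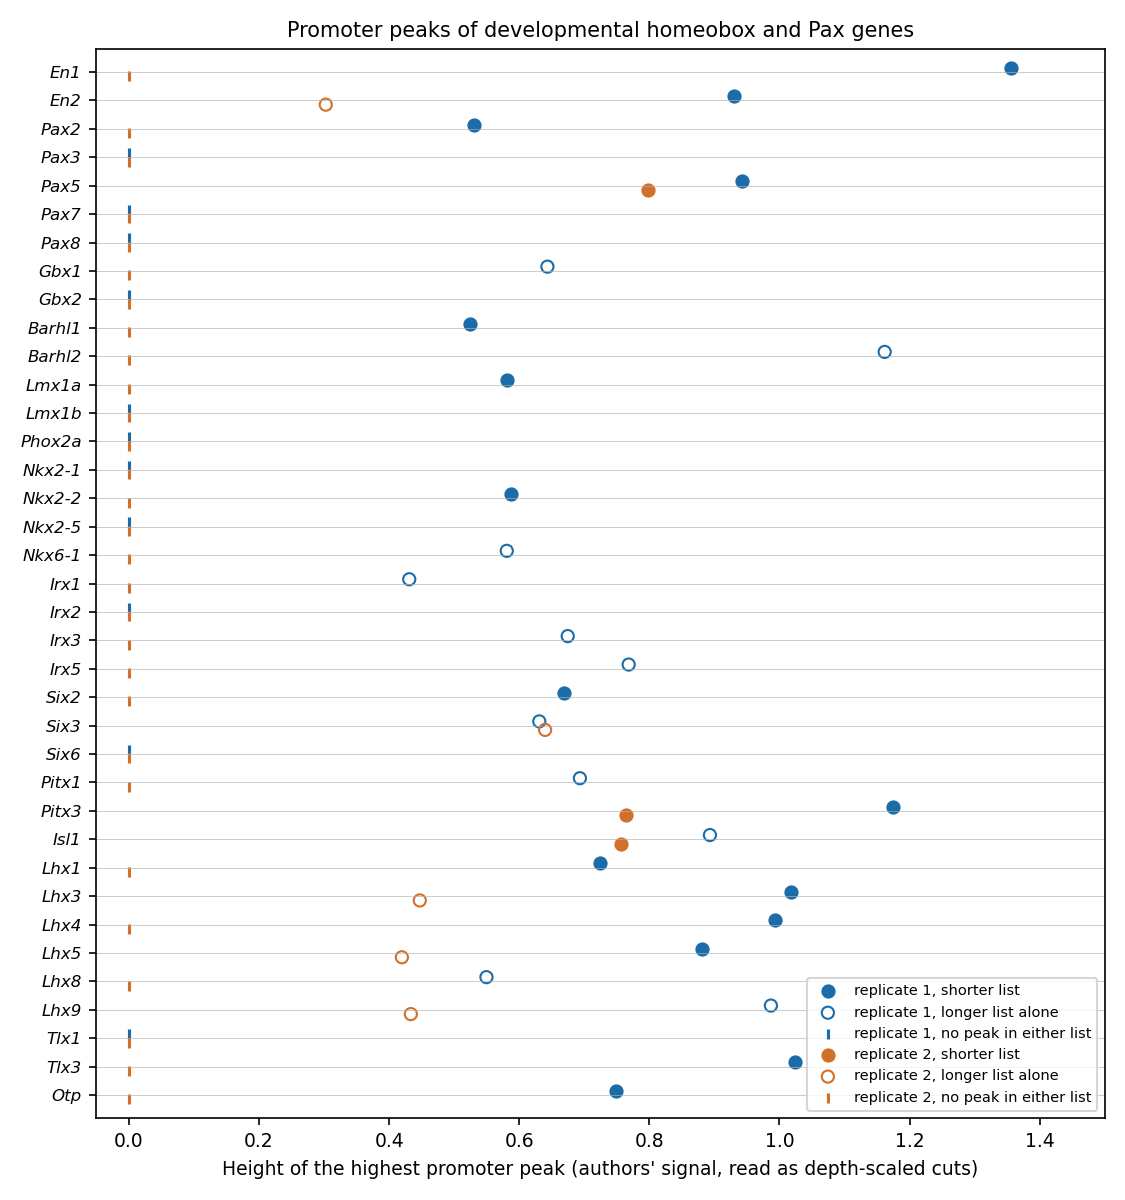
Height of the highest promoter peak of each member (x axis, authors' signal read as cuts scaled to library depth) in replicate 1 (blue) and replicate 2 (orange). Filled circles are peaks of the shorter list, open circles peaks of the longer list alone, and ticks at 0 genes without a peak in that mouse. The highest is En1 at 1.36 in replicate 1, and most orange marks lie at 0.

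Genes of the midbrain-hindbrain border had 4 promoter peaks among 7 members in replicate 1 and 1 in replicate 2. En1 and En2, the engrailed factors that set up midbrain and cerebellum, had heights of 1.36 and 0.931 in replicate 1, equal to 217 and 149 cuts, and no peak of the shorter list in replicate 2. The En1 peak was the highest member promoter peak, and it lay in an exon 649 bp downstream of the start (chr1:120603021-120603113) and held no footprint. En2 had 5 listed peaks that came within 1 kb of its start in replicate 1, of which the highest covered chr5:28166361-28166800 in an exon. Another of them, chr5:28166401-28166800, lay wholly within that stretch. In the longer list En2 also had a peak of 0.303 in replicate 2. Pax2, active in the isthmus, optic stalk and kidney, had 0.531 in replicate 1 and none in replicate 2, next to an internal start site.

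Pax5, which sets B-cell identity and also acts at the isthmus, had 0.943 and 0.798 in the respective mice. Its promoter peak was in an intron of the gene record, upstream of an internal start site (chr4:44704448-44704706), and it was about as high in replicate 2 as in replicate 1. Gbx1 and Gbx2 repress the midbrain programme from the hindbrain side. Gbx1 had 0.643 in the longer list of replicate 1 alone, and Gbx2 and the thyroid and kidney factor Pax8 had no promoter peak.

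Dorsal and roof-plate genes had 1 promoter peak among 4 members in replicate 1 and 0 in replicate 2. Lmx1a, a LIM factor of the roof plate and of dopamine neurons, had 0.581 in replicate 1. Pax3 and Pax7, which mark dorsal progenitors and muscle precursors, and Lmx1b, needed for serotonin neurons and limb pattern, had none in either list. At Pax3, 23 bases passed a false discovery rate of 0.05 within 1 kb of a start site in replicate 1, and at Pax7 and Lmx1b none did in either mouse.

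Of the 5 factors of hindbrain and sensory neurons, Barhl1 and Tlx3 had a promoter peak in replicate 1 and none in replicate 2. Tlx3 specifies excitatory neurons of the dorsal horn and had a height of 1.02, or 164 cuts, in replicate 1. The peak covered chr11:33203781-33204140, upstream of the start and partly within the printed sequence, and held 5 footprints. It had the lowest deposited q-value of any member near a start site, 2.46e-12, while replicate 2 had no listed base there. Barhl1, of the cerebellum and inner ear, had 0.525 in replicate 1. Its relative Barhl2 had 1.16 in the longer list of replicate 1, and Phox2a, a factor of noradrenergic neurons, and Tlx1, needed for the spleen, had none.

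NK homeobox genes pattern the ventral neural tube and inner organs, and 1 of 4 had a promoter peak in replicate 1 and 0 in replicate 2. That was Nkx2-2, of ventral progenitors and the oligodendrocyte lineage, at 0.587. Nkx6-1, of motor neuron progenitors and beta cells, had 0.581 in the longer list of replicate 1. Nkx2-1, which specifies ventral forebrain, thyroid and lung, and the heart factor Nkx2-5 had none.

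The 4 Iroquois genes, which pattern neural tube and heart, had no promoter peak of the shorter list in either mouse. In the longer list of replicate 1 Irx1 had 0.431, Irx3 0.675 and Irx5 0.768, and Irx2 had none. Within 1 kb of the best start site of Irx1, 1190 bases were listed in replicate 1 and 0 in replicate 2. Over all its start sites, 8 peaks of the longer list came within 1 kb in replicate 1. Within 1 kb of each start the signal was thus wide but low, without a peak of the shorter list. Farther out the shorter list of replicate 1 did hold Irx1 peaks. The highest, 0.737, was in an intron 1.42 kb from the nearest start (chr13:71962001-71962280).

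Among the genes of the sine oculis family, Six2, which keeps kidney progenitors, had 0.668 in replicate 1 and none in replicate 2. Six3, of the anterior forebrain and eye, had 0.631 and 0.640 in the longer lists of the respective mice. Six6, of retina and pituitary, had no promoter peak. The Six3 peaks did not overlap (chr17:85621941-85622080 in replicate 1, chr17:85620661-85620848 in replicate 2), so their near equal heights belong to different places. Within 1 kb of the best start site of Six2, 1060 bases were listed in replicate 1 and 0 in replicate 2.

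Pitx3, a factor of midbrain dopamine neurons and lens, had promoter peaks of 1.17 and 0.764. These highest peaks lay at different start sites. In replicate 1 it was in an intron at an internal start (chr19:46137261-46137440), and in replicate 2 it was just upstream of the 5′ end. At that 5′ end (merged site chr19:46148461-46148680) the heights were 0.687 and 0.764, or 110 and 111 cuts. The 3 internal promoter sites were in the shorter list of replicate 1 alone, and the highest of them was also in the longer list of replicate 2. Pitx1, of hindlimb and pituitary, had 0.693 in the longer list of replicate 1. Otp, a hypothalamic factor, had 0.750 in replicate 1 at an internal start site and none in replicate 2.

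LIM homeobox genes, which assign motor neuron and interneuron fates, had promoter peaks at 4 of 7 members in replicate 1 and 1 in replicate 2. Lhx3 and Lhx4, of pituitary and motor neurons, had 1.02 and 0.993 in replicate 1. These peaks were near internal start sites, 5093 and 10582 bp downstream of the 5′ end. Lhx1 and Lhx5, of spinal interneurons and the forebrain midline, had 0.725 and 0.881. The Lhx1 peak was also near an internal start site, 2607 bp downstream of the 5′ end. Isl1, of motor neurons and striatal projection neurons, was the sole member with a shorter-list peak in replicate 2 alone, at 0.757, and its longer-list peak in replicate 1 was 0.893. The longer lists of both mice thus held the Isl1 promoter. In the longer list all 7 LIM genes had a promoter peak in replicate 1 and 4 in replicate 2. Lhx9 had 0.987 and 0.433 there, Lhx8, of cholinergic forebrain neurons, 0.550 in replicate 1, and Lhx3 and Lhx5 0.447 and 0.420 in replicate 2. The Lhx3 peak of replicate 2 was at the 5′ end, apart from its highest peak in replicate 1.

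Of 21 paralogs outside the members, 13 had a promoter peak in replicate 1 and 5 in replicate 2, shares between those of the members and of the cortical genes. In the longer list they had 66.7% and 33.3%, in replicate 1 below the members' 70.3%. The highest were Lhx2, a selector of cortical identity, at 5.35 and 1.47, Pax6, of cortical progenitors, at 1.99 and 2.19, and Six5 at 2.55 and 1.53. In 7 paralogs, Pax1 and Pax4 among them, neither mouse had a peak. Of 20 homeobox genes in use in the cortex, all 20 had a promoter peak in replicate 1 and 16 in replicate 2. Pou3f3, of upper-layer neurons, had 7.16 and 5.58. Adnp, a homeodomain protein of chromatin complexes, had 5.73 and 4.19. The lowest were Otx1, of deep-layer neurons, at 1.26 in replicate 1 and Zfhx3 at 1.34, without a peak in replicate 2. In replicate 1 the cortical genes ranged from 1.06, at Hopx, to 7.16 and the 15 members with a peak from 0.525 to 1.36, so the ranges overlapped at their ends.

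The false discovery rate list also holds bases outside the peaks, down to a rate of 0.05, and leaves a start site without any such base at 0. Within 1 kb of the best start site a member had a median of 325 bases at a rate of 0.05 or less in replicate 1 and 0 in replicate 2. The medians were 805 and 436 for all coding genes and 1214 and 821 for CpG-rich ones. At least 1 such base was listed for 27 of 37 members in replicate 1 (73.0%) and 9 in replicate 2 (24.3%). All coding genes had 68.8% and 65.1%, and CpG-rich coding genes 97.8% and 94.1%. In replicate 1 the members' share was thus above that of all coding genes and below that of CpG-rich ones. The most for a member were 1586 bases in replicate 1, at Tlx3, and 363 in replicate 2, at Pax5. At a rate of 0.001 or less, 16 and 4 members kept at least 1 base (43.24% and 10.81%). The shares at that rate were 64.16% and 59.34% for all coding genes, and 95.76% and 90.04% for CpG-rich ones. At this stricter rate the members' shares were thus below both backgrounds in each mouse. In 10 members no base was listed around any start site in either mouse. They were Pax7, Pax8, Gbx2, Lmx1b, Phox2a, Nkx2-1, Nkx2-5, Irx2, Six6 and Tlx1.

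Around the 5′ end of the gene the members had a low and broad signal in replicate 1 and very little in replicate 2. Within 500 bp on either side, 22.4% of member bases in replicate 1 and 1.88% in replicate 2 were listed, beside 82.1% and 62.6% for CpG-rich coding genes. From 1 to 2 kb downstream the shares were 14.2% and 0.397% for members and 12.9% and 5.40% for CpG-rich genes. The 20 cortical homeobox genes had 56.5% and 9.74% there, a signal that ran on into the gene. Farther than 3 kb out the members had 5.33% and 1.34%, beside 2.77% and 1.49% for CpG-rich genes, so in replicate 1 they were the higher there.

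**Figure D3:**
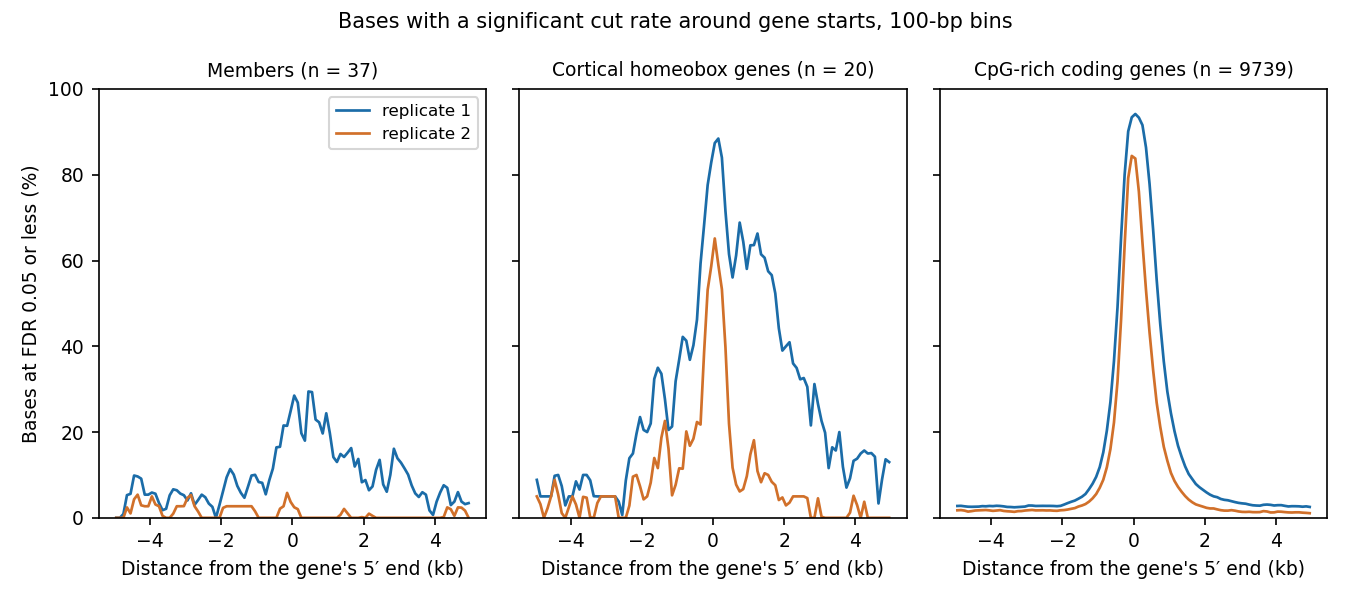
Percent of bases at a false discovery rate of 0.05 or less in 100-bp bins within 5 kb of the gene's 5′ end (x axis in kb, downstream to the right), for members, cortical homeobox genes and CpG-rich coding genes. Blue is replicate 1 and orange replicate 2. The members' highest bin reached 29.5% in replicate 1 and 5.81% in replicate 2, against 94.2% and 84.4% for CpG-rich coding genes.

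Over the gene and 10 kb on each side, a member had a median of 2 peaks in replicate 1 and 0 in replicate 2, with a range of 0 to 8 in each. All coding genes had medians of 2 and 2, and CpG-rich coding genes 3 and 3. No peak was listed in this domain for 12 and 19 members. The share without a peak was 21.6% and 23.3% of all coding genes and 1.53% and 3.44% of CpG-rich ones. No domains of members overlapped. The members were shorter than most genes, with a median length of 9.525 kb beside 17.4 kb.

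Merging the shorter-list peaks of both mice gave 91 sites in the domains of 27 members. The other 10 members, Pax3, Pax8, Gbx2, Barhl2, Phox2a, Nkx2-5, Irx2, Irx3, Six6 and Lhx8, had none. Of the 91 sites, 25 were in both mice (27.5%, 95% Wilson interval 19.4 to 37.4, counting error only), 58 in replicate 1 alone and 8 in replicate 2 alone. Genome-wide 52.5% of 83641 sites were in both mice and 31.1% in replicate 1 alone. Member sites were also lower, with median heights of 0.743 and 0.915 beside 1.17 and 0.970 for all sites. The part of height in the sharing was not tested. Sites of 1 gene share their locus and are not independent.

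Sites at the members' own promoters were shared least. Of the 27 sites at the members' own promoters 2 were in both mice, and of the 10 at promoters of other genes 4 were, beside 60.8% of 29351 sites at start sites genome-wide. Of the 54 sites away from every start site 19 were (35.2%, beside 48.0% genome-wide). The 27 promoter sites were in exons in 12 cases, in introns in 6 and upstream in 9, with a median GC content of 68.3%. For the 54 sites away from start sites it was 54.9%. Where a site was in both mice it was mostly higher in replicate 1, in 19 of 25 cases, with a median log2 ratio of 0.57 beside 0.46 over all shared sites.

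**Figure D4:**
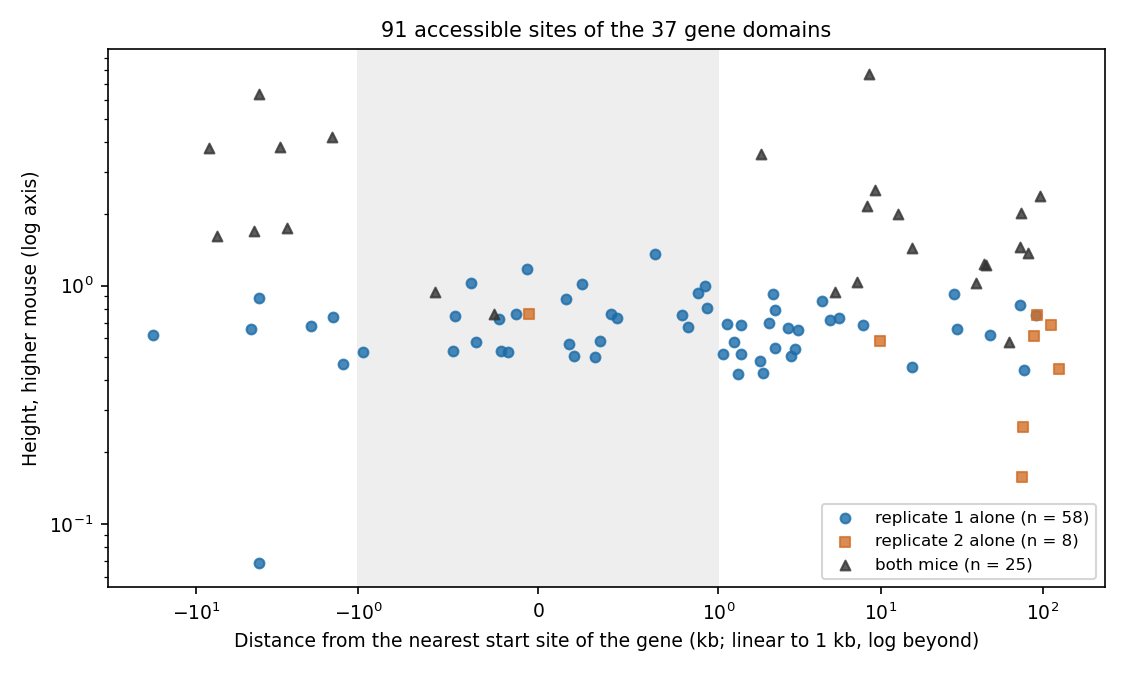
Height of each of the 91 sites in the higher mouse (log axis) against distance from the nearest start site of its gene (kb, linear to 1 kb and log beyond, upstream to the left). Circles are sites in replicate 1 alone, squares in replicate 2 alone and triangles in both mice, and the grey band marks 1 kb around the start. Triangles above a height of 2 all lie outside the band.

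The highest sites in the domains belonged to neighbouring genes. The site at the promoter of Gbf1 upstream of Pitx3 (chr19:46152201-46152620) had 6.33 and 5.97, that of Aatf downstream of Lhx1 (chr11:84513521-84513760) 7.73 and 4.23, and that of Crnde upstream of Irx5 (chr8:92356041-92356320) 4.20 and 3.91. Each was called in both mice and was several times higher than any member promoter. The first gene works in Golgi traffic, the second in transcription, and the third is a long noncoding RNA gene. Accessible promoters thus lay within 10 kb of member genes whose own promoters were low or unlisted.

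Among sites away from any start site, the highest was 3.03 kb upstream of Gbx1 (chr5:24530121-24530340), at 3.80 and 2.44, or 608 and 355 cuts. It held 7 footprints in replicate 1 and 4 in replicate 2, while the Gbx1 promoter had no peak of the shorter list. A site just downstream of Pitx3 (chr19:46135361-46135560) had 3.55 and 2.09. An exonic site 9.22 kb into Lhx5 (chr5:120440821-120441020) had 2.52 and 1.74, and an exonic site near the 3′ end of Pax7 (chr4:139737101-139737340) 2.37 and 1.60. These sites were in both mice, and the Pax7 site was the sole site of that gene.

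Sites per gene were led by Lmx1b with 8, then Lhx1, Nkx2-2, Pax5 and Pitx3 with 7 each. Lmx1b had 5 sites in both mice, more than any other member, and none of them at a start site. They lay upstream (chr2:33643161-33643360, 1.74 and 0.667), in introns (1.44 and 1.27 for the higher) and downstream of the gene (2.02 and 1.18 for the higher). Nkx2-2 had 3 shared sites, all beyond the promoter, with 2.16 and 1.36 at chr2:147177781-147177980 in an exon. A neighbouring pair in its introns had 0.943 in replicate 1, and 1.04 and 0.915 in replicate 2.

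Pax5 had 3 sites in both mice, 2 in replicate 1 alone and 2 in replicate 2 alone. At its 2 shared intronic sites outside the promoter replicate 2 was the higher, with 1.14 and 1.37 at chr4:44564641-44564860 and 1.04 and 1.22 at chr4:44600941-44601160. Lhx1 had 6 sites in replicate 1 alone and shared the Aatf promoter site only. Pitx3 had 4 in replicate 1 alone and 3 in both. A single locus could therefore hold sites found in both mice next to sites found in 1.

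**Figure D5:**
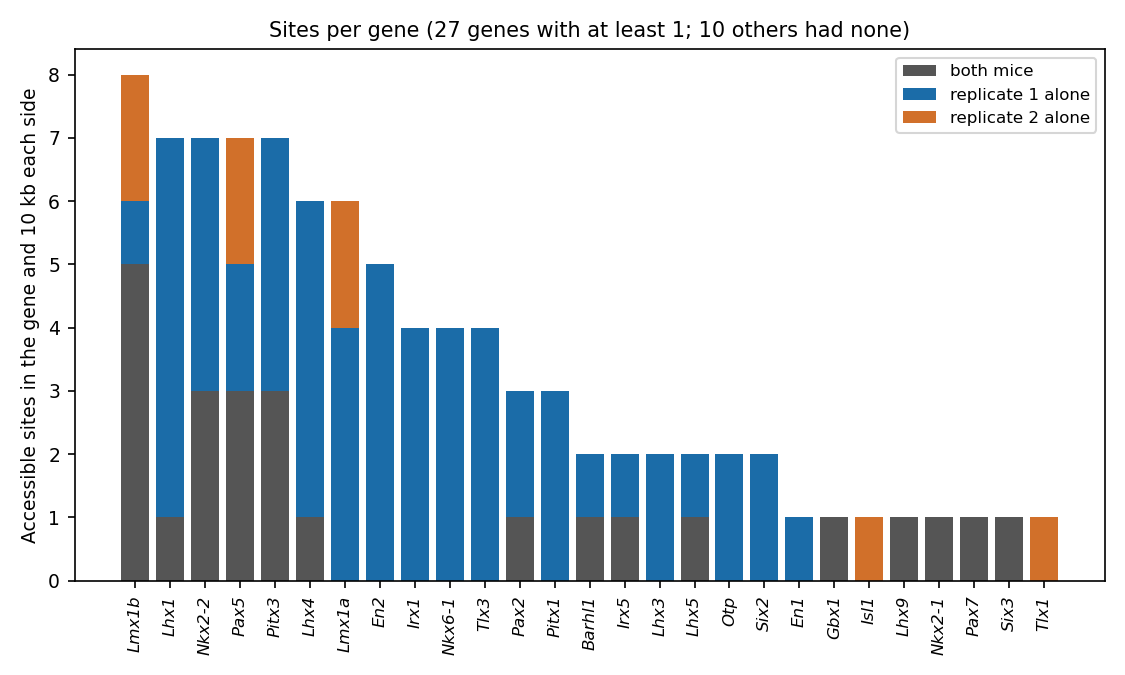
Number of accessible sites (y axis) in the gene and 10 kb on each side, for the 27 members with at least 1 site. Grey is sites in both mice, blue replicate 1 alone and orange replicate 2 alone. Lmx1b has the most sites in both mice, 5 of 8, and blue makes up 58 of the 91 sites.

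Footprints are short stretches inside accessible sites that are cut less than their surroundings, as under a bound protein. In replicate 1, 66 of 85 member peaks held at least 1 footprint (77.6%) and in replicate 2 31 of 34 (91.2%), beside 83.1% and 88.1% of all peaks. Low peaks hold fewer footprints, and in the lowest of 4 equal classes of height in replicate 1 the shares were 61.4% for member peaks and 61.1% for all. Members had 168 and 79 footprints with median widths of 8 and 12 bp. Of 165 distinct footprints in replicate 1, 30.3% overlapped a footprint of the other mouse, and of 79 in replicate 2, 57.0% did. Over the footprints in all peaks the shares were 38.0% and 46.0%. Most member sites of replicate 1, 58 of 83, had no peak of the shorter list in replicate 2. Some of the 58 had a peak in its longer list. Sites in replicate 1 alone made up 63.7% of member sites and 31.1% of all sites.

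CTCF, the factor that with cohesin anchors chromatin loops, had a motif match in 4 of the 25 member sites in both mice (16.0%, beside 6.93% of all sites in both mice) and in 0 of the 58 in replicate 1 alone (1.74% genome-wide). With 58 sites a share of up to 5.17% is allowed by a count of 0. The 4 matches were at Pax5, Lhx5, Lmx1b and Nkx2-1, none at a start site, and in at least 1 mouse each lay wholly inside 1 footprint. At Lhx5 this held in both mice, at Lmx1b and Nkx2-1 in replicate 1 and at Pax5 in replicate 2. In replicate 1 the Pax5 match lay across 2 separate footprints, and the larger overlap covered 7 of its 14 bases. A further match, in a footprint of replicate 2, was at an intronic site of Lmx1a listed in that mouse alone. Sequences of 60 bases around 3 of the matches are printed as examples of a motif under a footprint near these genes, with the matched bases in capitals.

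Pax5 intron, chr4:44564725-44564784, plus strand: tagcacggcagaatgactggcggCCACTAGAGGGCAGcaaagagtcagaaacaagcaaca

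Lmx1b upstream, chr2:33643256-33643315, minus strand: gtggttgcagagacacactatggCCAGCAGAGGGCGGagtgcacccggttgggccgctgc

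Nkx2-1 upstream, chr12:56541258-56541317, minus strand: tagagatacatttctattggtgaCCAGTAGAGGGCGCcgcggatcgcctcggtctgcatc

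The Nkx2-1 site lay 4.36 kb upstream of the nearest start and had 1.69 and 0.654, or 270 and 95 cuts. It was the sole listed site of the gene in the shorter lists, and it is the one with the CTCF match. A second Pax5 intron site (chr4:44600941-44601160) had a match to the NFI motif, of factors active in neurons and glia, inside footprints of both mice. TAATTA was found at 1 of the 91 sites (1.10%, beside 2.53% genome-wide), in an intron of Lmx1b. The AP-1 motif TGANTCA was at 3 of the 25 shared sites (12.0%, beside 11.6% genome-wide) and at 0 of the 58 in replicate 1 alone (7.16%), and GGGCGG at 40.0% and 27.6% (31.8% and 17.5% genome-wide). Sites in replicate 1 alone were narrower, with a median width of 118 bp beside 220 bp for shared member sites, which leaves fewer bases to match.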

How the data were processed

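The authors made every file from 1 library, with an aligner and callers not given in the sources used here. Files are on mm10, per the labels. Peak height is the signal in the deposited lists. Its normalization is not stated, but all heights (100% within 0.02) were whole multiples of a step in each library, so they were read as cuts scaled to depth. The deposited false discovery rate (FDR, a q-value) list holds bases at 0.05 or less. The authors' footprint score was constant and only positions were used. No per-sample column stayed unmapped.

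Start sites came from GENCODE M21 (chromosomes 1 to 19 and X) and sequence from GRCm38.p6 and RefSeq tables. Peaks of the mice that overlap by 1 bp or more were joined into sites, a footprint counts inside a peak, and a motif lies in a footprint that covers at least 50% of it. The rule that lists the members uses no value, but members, lists and motifs (12 in all) were chosen with earlier results of these data known. All members are accounted for. Heights are given for members with a promoter peak, for the 5 highest sites outside the promoters and for the 5 members with the most sites. Other lists show the 3 highest and 2 lowest genes by mean height. A gene that this rule takes is not reported here. Other sites, and the printed sequences, were chosen after their values were seen. With 1 group there is no test and no p, and errors are the SD over 2 mice. The alternatives were the longer list, higher peaks, other windows, start sites, overlaps and domains, a stricter rate, rescaled heights and leaving out each mouse. Procedures were tested on simulated data. Python 3.11.15, NumPy 2.4.6, pandas 2.3.3, SciPy 1.17.1, pysam 0.24.0 and matplotlib 3.10.9 were used. Reads and tracks of cut density were left out.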

Additional observations from a re-analysis of the deposited data

How the results depend on the processing

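No paired analysis was possible because both mice belong to 1 group. Of 39 alternatives 10 moved a value by more than the spread between the mice (for shared sites, the Wilson interval), or a count of genes by over 1.5 times. That spread is wide, so moves within it can be large. The share of members with a promoter peak, 24.3%, was 45.9% in the longer list and 1.35% with the higher 50% of peaks, and it ranged from 8.11% to 40.5% when either mouse was left out, with replicate 1 giving the higher value. CpG-rich coding genes ranged from 89.3% to 95.5% without either mouse and had 86.5% with the higher 50% of peaks, so the members stayed below them under every alternative that was run for both. The median number of peaks per member, 1 over both mice, was 3 in the longer list and 3 with 50 kb on each side. Footprints were held by 71.1% of member peaks in the longer list and 97.2% of the higher 50%, beside 84.4%. Sites in both mice made up 18.0% in the longer list and 54.5% with the higher 50% of peaks, beside 27.5%, and this share gives no value without either mouse. The genome-wide share was not computed for those alternatives, so they have no background. The median number of listed bases at a member start, 162.5 over both mice, was 0 without replicate 1, 325 without replicate 2 and 0 at a rate of 0.001 or less. The median log2 ratio of 0.57 at shared sites was 0.07 after heights were divided by the median of all shared peaks. The lists hold nothing under their thresholds, so a promoter without a peak was not detectable at this depth and is not shown to be closed.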
